A study of Arabidopsis thaliana with 11 samples.

Results

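The cell wall loosening genes described here are 52 loci of Arabidopsis thaliana, the 33 members of the xyloglucan endotransglucosylase/hydrolase family (XTH1 to XTH33) and 19 alpha-expansins (EXPA1 to EXPA18 and EXPA20). They were taken by family number and locus identifier out of 27444 protein-coding nuclear genes. The XTH family is whole, while 7 further alpha-expansins (EXPA19 and EXPA21 to EXPA26) are not among the members. Binding of HY5, a basic leucine zipper transcription factor of light signalling, was measured by immunoprecipitating chromatin with a Flag antibody and sequencing it. The 8 libraries came from Columbia seedlings in which the viral 35S promoter drives HY5 carrying the FLASH2 tag. HY5ox (3 libraries) is HY5 without further change, HY5-VP16 (3 libraries) has the activation domain VP16 added, and HY5-SRDX (2 libraries) has the repression domain SRDX added. All seedlings grew for 3 days in darkness and were then given 2.5 h of simulated white light at 100 µmol per square metre per second. The temperature given for every sample was 21 °C. The 3 control samples were Columbia for sets 1 and 3 and a sample titled hy5 for set 2, and they enter the files through the peak caller's comparison alone. Set 1 comprised the 2 HY5-SRDX libraries, HY5ox replicate 1 and HY5-VP16 replicates 1 and 2, set 2 comprised HY5ox replicate 2, and the replicates 3 of HY5ox and HY5-VP16 made up set 3. Whether the libraries of 1 construct stem from different transgenic lines, plates or harvests is not stated, so the spread between them may be technical.

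Plant cells enlarge when turgor stretches a wall of cellulose microfibrils tethered by xyloglucan. XTH enzymes cut xyloglucan chains and rejoin them to other chains, and some members hydrolyse them. Alpha-expansins carry no such activity and loosen the contacts between wall polymers at acidic pH. In a dark-grown seedling the hypocotyl elongates quickly, and light brings this growth to a stop while the cotyledons expand. HY5 is required for the normal shortening of the hypocotyl in light and binds promoter elements with an ACGT core such as the G-box.

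Depth ran from 11.5 to 56.0 M tags per library (M, 1e6). The shortest list, of HY5-VP16 replicate 3, held 2958 peaks and the longest, of HY5-SRDX replicate 1, held 20509. HY5-VP16 replicate 3 was the deepest library, yet 1.83% of its tags fell in peaks, where the other 7 libraries had 5.94% to 10.13%. Peaks were widest in the HY5ox libraries (273 to 301 bp) and narrowest in HY5-SRDX replicate 1 (167 bp). A gene is called listed when the authors' gene list of a library holds it, which needs a peak in the 2000 bp before the start site or in the gene body. Chromatin came from whole seedlings, so that binding in few cells and weak binding in many cells cannot be told apart.

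As families, the wall loosening genes were not listed more often than other genes. HY5ox replicates 1, 2 and 3 listed 23, 14 and 19 of the 52, or 44.2%, 26.9% and 36.5%, where 46.4%, 28.9% and 41% of all protein-coding genes were listed. HY5-VP16 replicates 1, 2 and 3 listed 15, 14 and 6 members, or 28.8%, 26.9% and 11.5%, against 34.9%, 44.6% and 12.4% of protein-coding genes. HY5-SRDX replicate 1 listed 16 (30.8% against 52.5%) and replicate 2 listed 25 (48.1% against 40.4%). The member share was thus below that of all genes in 7 of 8 libraries, and HY5-SRDX replicate 2 was the exception. The mean count of listed members was 18.7 ± 4.51 for HY5ox (SD, n = 3). It was 11.7 ± 4.93 for HY5-VP16 (SD, n = 3) and 20.5 ± 6.36 for HY5-SRDX (SD, n = 2). HY5ox overlapped with both other constructs, and the HY5-SRDX counts (16 and 25) lay above the HY5-VP16 counts (6 to 15).

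The order of the 2 families varied with the library. The alpha-expansin share exceeded the XTH share in 5 of 8 libraries, among them all of HY5ox, where it was 47.4%, 36.8% and 47.4% against 42.4%, 21.2% and 30.3%. In HY5-VP16 replicates 1 and 3 and HY5-SRDX replicate 2 the XTH share was the higher, and over the HY5-VP16 libraries the mean shares were 22.8% ± 13.2 and 22.2% ± 10.6 (SD, n = 3). XTH genes were below the share of all protein-coding genes in 7 of 8 libraries and alpha-expansins in 4 of 8. The alpha-expansins were above that share in HY5ox replicates 1, 2 and 3, where it was 46.4%, 28.9% and 41.0%. They were also above it in HY5-SRDX replicate 2 (47.4% against 40.4%). Over the libraries an XTH gene was listed in 2.36 of 8 on average, an alpha-expansin in 2.84 and a protein-coding gene in 3.01, and the median was 2 for each. The alpha-expansin values leave out 7 genes, EXPA19 and EXPA21 to EXPA26, of which 1 was listed in any library, against 81.0% of protein-coding genes. With them the alpha-expansin shares would be lower, so the order of the families depends on this choice. No test was made between the families.

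**Figure D1:**
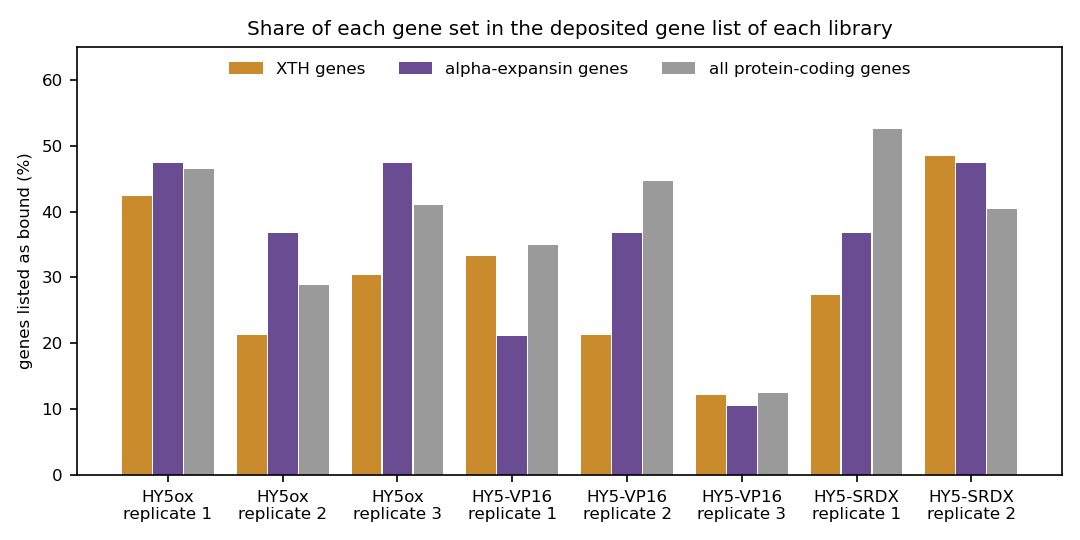
Share of XTH genes, alpha-expansin genes and all protein-coding genes (%, vertical axis) in the deposited gene list of each of the 8 libraries (horizontal axis). The XTH bar is below the grey bar in 7 of 8 libraries, and HY5-SRDX replicate 2 has both families above it.

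Most members were seen in few libraries, and a small group recurred. Of the 52 genes, 12 were listed in no library (23.1%, against 19% of protein-coding genes), 10 in 6 or more (19.2% against 22.5%) and 2 in all 8 (3.85% against 6.58%). The members listed in no library were XTH1, XTH2, XTH6, XTH11, XTH12, XTH16, XTH17, XTH31, EXPA5, EXPA13, EXPA14 and EXPA15. They include XTH17, known for shade-induced petiole elongation, and XTH31, a xyloglucan hydrolase. XTH15, another gene of shade-induced elongation, was listed in HY5-SRDX replicate 2 alone. The recurrent group comprised XTH14, XTH19, XTH22, XTH27, XTH28, XTH30, XTH33, EXPA7, EXPA8 and EXPA9.

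Of the 7 recurrent XTH genes 4 belong to 1 subgroup, which was picked out after its values were seen and is a description only. XTH27 to XTH30 and XTH33 form the branch often called group III-B, and 4 of these 5 genes were listed in 6 or more libraries, XTH29 being the exception with 2. Of XTH1 to XTH26, 3 of 26 were (11.5%), and of XTH31 and XTH32, the hydrolase branch, 0 of 2. The mean number of libraries was 5.4, 1.88 and 1.0 in these groups. Of all protein-coding genes 22.5% were listed in 6 or more, with a mean of 3.01 libraries.

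**Figure D2:**
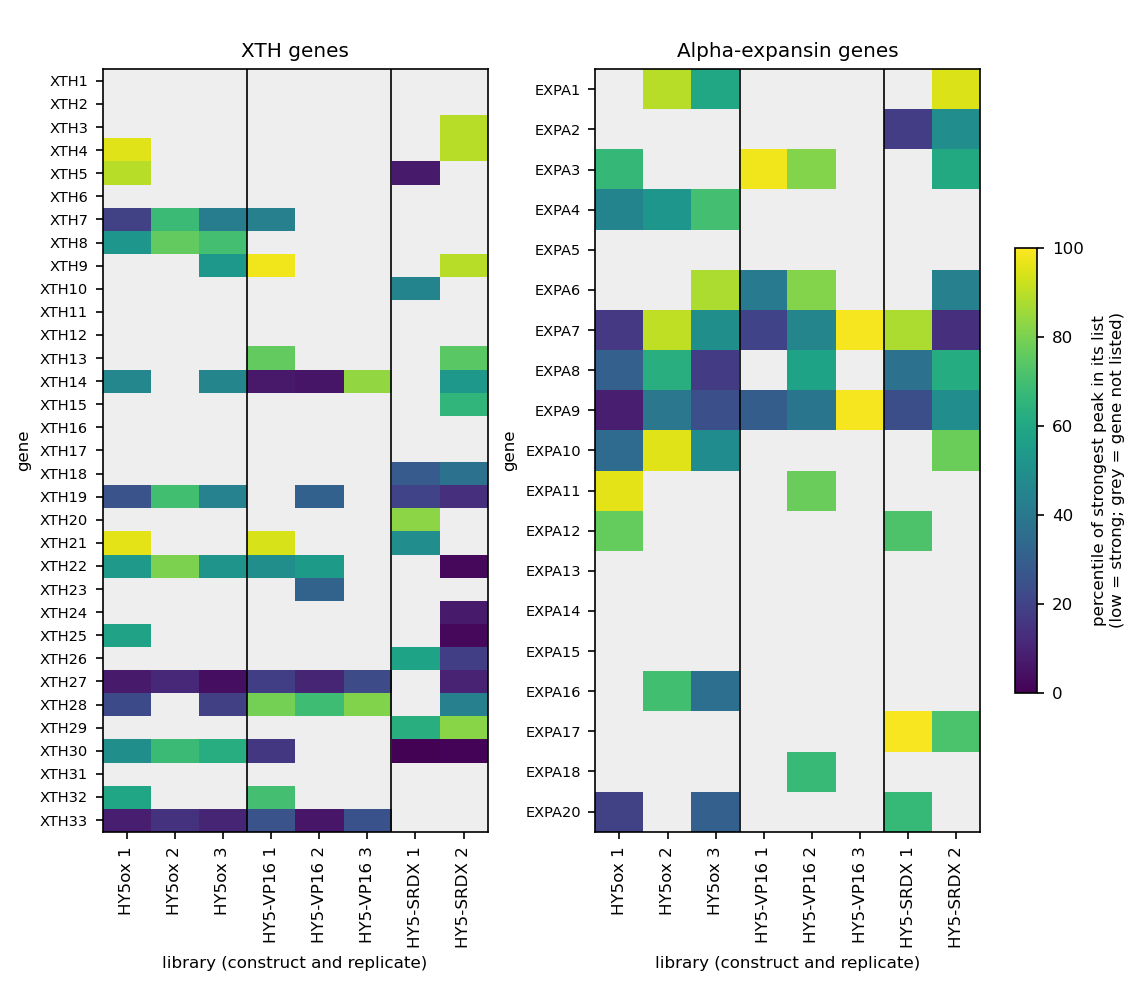
Percentile of the strongest peak of each XTH gene (left) and alpha-expansin gene (right) in each library, coloured from strong (0) to weak (100), with grey where the gene was not listed and black lines between constructs. XTH27 and XTH33 are dark, with percentiles of 25.6 or lower, wherever they are listed, and EXPA7 and EXPA9 are the rows with no grey cell.

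XTH27 (AT2G01850, also named EXGT-A3), which is needed for normal tracheary elements in leaf veins, had the lowest mean percentile (12.1) among members listed in 4 or more libraries. Strength is given as the percentile of a gene's strongest peak in its own list, 100 times its rank by normalized tag count over the number of peaks, so that low values are strong. XTH27 stood at 7.37, 11.6 and 3.84 in HY5ox replicates 1, 2 and 3, at 18.7, 10.5 and 23.1 in HY5-VP16 and at 9.81 in HY5-SRDX replicate 2. HY5-SRDX replicate 1 did not list it, although that library has the longest peak list. The peak lay far upstream, on chromosome 2 at 383315 to 383822 over all libraries (TAIR10), with its centre 1482 to 1790 bp before the start site. Its fold over control, as deposited, was 4.22 to 11.54. A further peak of XTH27, 816 to 883 bp before the start site, was found in 5 libraries at percentiles of 31.1 to 61.4. No other gene was assigned either of these peaks.

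XTH33 (AT1G10550) was marked at its other end. Its only peak region, chromosome 1 at 3479243 to 3479622, lay 1507 to 1619 bp downstream of the start site, inside the gene body. The fold over control, as deposited, was 3.01 to 8.52, where 3 was needed for a call. The percentile was 8.40, 14.7 and 10.2 in HY5ox and 25.6, 5.88 and 25.1 in HY5-VP16, in the order of the replicates, and neither HY5-SRDX library listed the gene. The same peaks were also assigned to the promoter of the neighbouring gene NAT8 (AT1G10540), a nucleobase-ascorbate transporter gene, and XTH33 had no promoter peak in any library. To which of the genes the binding belongs was not tested. XTH33 was the single member listed in every HY5-VP16 library and in no HY5-SRDX library, a pattern held by 0.758% of protein-coding genes.

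XTH30 (AT1G32170) had the strongest member peaks of all, and these were in HY5-SRDX. It ranked 112 of 20509 peaks in HY5-SRDX replicate 1 and 134 of 12672 in replicate 2, percentiles of 0.546 and 1.06. HY5ox gave 49.6, 68.2 and 62.2 and HY5-VP16 replicate 1 gave 16.3, while HY5-VP16 replicates 2 and 3 did not list it. The HY5-SRDX values were below all others, also within set 1, where the control was shared. The peaks were not at 1 place, however. In HY5-SRDX replicate 1 the peak was centred 1937 bp before the start site with 48.17 times the control tags, and in replicate 2 it was centred at 1531 bp with 7.85 times. The latter overlapped the region of the HY5ox and HY5-VP16 peaks (chromosome 1, 11573493 to 11573924), and the former, which ended at 11573467, did not.

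XTH28 (AT1G14720), which acts in growth of stamen filaments, carried 1 upstream region in 6 libraries, on chromosome 1 at 5070496 to 5070855. Its centre was 2001 to 2093 bp before the start site, at the very edge of the promoter window, so that its assignment rests on overlap with that edge. Its percentile was 22.3 and 19.1 in HY5ox replicates 1 and 3, and 79.3, 69.1 and 80.9 in the 3 HY5-VP16 libraries. HY5-SRDX replicate 2 gave 43.4. HY5ox replicate 2 and HY5-SRDX replicate 1 did not list the gene, and it was therefore not tested. The listed HY5ox values were lower than all HY5-VP16 values, but HY5ox replicate 2 gave none. Of 2695 genes listed in every library of both constructs, 19.4% had lower percentiles in every HY5ox library and 0.26% higher ones. XTH28 was not among these genes.

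The other recurrent XTH genes had peaks closer to the start site. XTH14 (AT4G25820), a root-expressed enzyme, had a region at the start site itself, with centres from 135 bp before to 18 bp after it. Its percentile was 6.86 and 5.59 in HY5-VP16 replicates 1 and 2, 83.6 in replicate 3, 46.3 and 45.6 in HY5ox replicates 1 and 3, and 53.4 in HY5-SRDX replicate 2. The values of HY5-VP16 thus lay both below and above those of the other constructs. XTH19 (AT4G30290), which acts with XTH20 in the rejoining of cut stems, had its strongest peak 277 to 421 bp before the start site in 6 libraries. HY5ox gave percentiles of 25.4, 69.9 and 44.2. The gene stood at 30.998 in HY5-VP16 replicate 2 and at 19.99 and 13.4 in HY5-SRDX. XTH22 (AT5G57560), the touch-induced gene TCH4, had a region 776 to 888 bp before the start site in 6 libraries with 3.34 to 5.02 times the control tags. The strongest peak of XTH22 in HY5-SRDX replicate 2 was another one, inside the gene, and ranked 269 of 12672. It had 3.28 times the control tags, close to the 3-fold needed for a call.

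Several XTH genes lie side by side on the chromosome, and 3 pairs shared a peak. The HY5-SRDX replicate 2 peak inside XTH22, high in rank by tag count, was also assigned to the promoter of XTH25, as was a HY5ox replicate 1 peak at the start of XTH22. XTH14 and XTH23 shared a peak of HY5-VP16 replicate 2, the only one that listed XTH23. XTH18 and XTH19 shared a peak of HY5-SRDX replicate 2. Counting other members and genes outside the families, 44 of the 87 pairs of a member and a peak region had at least 1 further gene, which was another member in 8. The strongest peak was assigned to a further gene for 16.7% to 47.8% of listed members per library, below the 53.0% to 60.7% of listed protein-coding genes in each of the 8 libraries, with no test made. XTH21, a gene of root growth, was listed in 3 libraries, and each of its peaks lay inside the gene body of PHYB, the phytochrome B gene.

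Among alpha-expansins, EXPA7 and EXPA9 were listed in all 8 libraries. EXPA7 (AT1G12560), which acts in root hair growth, had 1 region with a peak in each library, on chromosome 1 at 4275994 to 4276483, with centres 134 to 385 bp before the start site. These peaks were chained by overlap. Those of HY5ox replicate 2 (to 4276276) and HY5-VP16 replicate 2 (from 4276291) did not overlap each other. Such a region, with a peak of all 8 libraries, was present at 4.05% of protein-coding genes and at no other member. EXPA7 was also the only member in the authors' deposited table of peaks merged over all libraries. That table held 1175 of the 27444 protein-coding genes. The rank of the peak varied widely. The percentile of EXPA7 was 16.6, 90.6 and 49.9 for the HY5ox replicates, 20.2, 45.3 and 98.5 for those of HY5-VP16, and 87.9 and 13.7 for those of HY5-SRDX. Each construct thus had a strong and a weak library. The authors' fold over control ran from 3.01 to 11.08. EXPA18, the other root hair expansin, was listed in HY5-VP16 replicate 2 alone.

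EXPA9 (AT5G02260) was listed through several peaks. Its main region, chromosome 5 at 462421 to 462749, was centred 536 to 623 bp before the start site and was found in 6 libraries, with 4.14 to 18.33 times the control tags. HY5ox gave percentiles of 8.24, 39.7 and 24.4, HY5-VP16 29.7, 38.9 and 98.7, and HY5-SRDX 24.1 and 49.1. The weakest of these, in HY5-VP16 replicate 3, belonged to another region 1621 bp upstream, and the value of HY5-SRDX replicate 1 to a peak 739 bp inside the gene. EXPA8 (AT2G40610) was listed in 6 libraries and had 1 region in all of them, 1875 to 1930 bp before the start site, at percentiles of 37.8 to 74.8. In HY5ox replicates 1 and 3 a peak 1405 and 1401 bp inside the gene was stronger, with percentiles of 30.6 and 17.3. EXPA6 (AT2G28950) was listed in 4 libraries, mainly through a region 1466 to 1687 bp inside the gene at percentiles of 41.3 and 81.5 in HY5-VP16 replicates 1 and 2 and 43.4 in HY5-SRDX replicate 2. HY5ox replicate 3 listed it through a peak 2149 bp upstream, at 87.7.

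**Figure D3:**
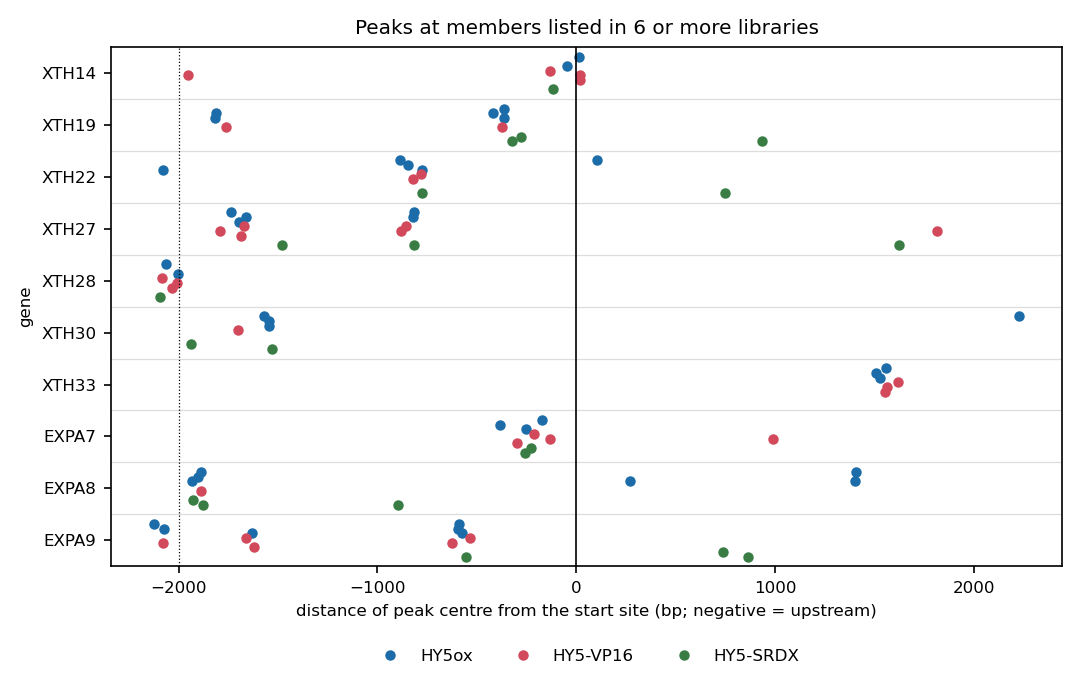
Distance of each peak centre from the start site (bp, horizontal axis; the dotted line marks 2000 bp upstream) for the 10 members listed in 6 or more libraries (vertical axis), with 1 point per peak and library, coloured by construct. EXPA7 has a point of every library just upstream of the start, XTH27 and XTH28 have far upstream groups, and XTH33 has points inside the gene alone.

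Over all members 171 peak assignments were made, 133 to promoters and 38 to gene bodies alone. Of the 87 member regions 56 (64.4%) held a peak of 1 library, and 9 (10.3%) held peaks of 6 or more, close to 61.0% and 10.2% of the regions of protein-coding genes. Among the 9 recurrent regions 8 were promoter regions, and 3 of these lay more than 1000 bp upstream in every library, at XTH27, XTH28 and EXPA8. The median percentile of the members' strongest peaks was close to that of other genes in most libraries. This median lay between 43.7 and 49.1 in 5 libraries and was 50.0 in HY5-VP16 replicate 2, where that of all listed protein-coding genes lay between 41.2 and 48.1 over the 8 libraries. In the shortest lists it was higher, 69.0 in HY5ox replicate 2 (against 46.0) and 82.3 in HY5-VP16 replicate 3 (against 45.7), which means weaker peaks. These 2 medians rest on 14 and 6 members.

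Whether an added domain changed which members were bound was addressed by genes listed in every library of a construct. HY5ox had 12 such members (23.1%, against 23.5% of protein-coding genes), HY5-VP16 6 (11.5% against 10.7%) and HY5-SRDX 10 (19.2% against 26.4%). All 3 shares were near or below the background. When a single region had to hold a peak of every library, HY5ox kept 10 of its 12 members (21.8% of protein-coding genes met this rule), HY5-VP16 5 of 6 (9.71%) and HY5-SRDX 5 of 10 (14%). Among all protein-coding genes 92.9%, 90.5% and 52.9% were kept. The share kept in HY5-SRDX was thus lowest among members and among all genes alike.

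HY5ox and HY5-VP16 differed at 3 members, XTH8, EXPA4 and EXPA10, which were listed in every HY5ox library and in no HY5-VP16 library (1.37% of protein-coding genes). EXPA4 (AT2G39700) had a region 1343 to 1390 bp before its start site in the 3 HY5ox libraries, at percentiles of 45.3, 74.3 and 70.3, and in no other library. HY5ox replicate 2 held a further, stronger EXPA4 peak 2131 bp upstream, at 52.4. EXPA10, an expansin of leaf growth, had a region 289 to 313 bp upstream in HY5ox replicates 1 and 2 and HY5-SRDX replicate 2, while HY5ox replicate 3 was listed through a gene-body peak. XTH8 had peaks at 3 places, of which none was common to the 3 libraries. Its percentile was 52.7, 75.8 and 70.3 in HY5ox. The opposite pattern, every HY5-VP16 and no HY5ox library, was seen at 0 members and at 0% of protein-coding genes. The count of members in every HY5-VP16 library is limited by its replicate 3 with 6 members, and was 9 without that replicate. The 2 splits of HY5ox and HY5-VP16 stayed at 3 and 0 without it.

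HY5ox and HY5-SRDX were separated by 4 members in the first direction and 5 in the other. XTH7, XTH8, XTH33 and EXPA4 were listed in every HY5ox and no HY5-SRDX library (2.84% of protein-coding genes). XTH7 (AT4G37800) had 1 region 363 to 402 bp before its start site in all HY5ox libraries and HY5-VP16 replicate 1, with percentiles of 19.2, 68.2 and 42.2 in HY5ox and 43.7 in that HY5-VP16 library. XTH18, XTH26, XTH29, EXPA2 and EXPA17 were listed in both HY5-SRDX libraries and in no HY5ox library (4.43% of protein-coding genes). No HY5-VP16 library listed any of these 5 members either. Both HY5-SRDX and no HY5-VP16 library, whatever HY5ox listed, was the pattern of 4.67% of protein-coding genes. The share absent from both other constructs was not computed. EXPA2 acts in seed germination, EXPA17 in lateral root emergence and XTH26 in root hairs. The strongest peak of HY5-SRDX replicates 1 and 2 stood at 28.7 and 37.9 for XTH18, 62.5 and 82.3 for XTH29, 18.1 and 49.1 for EXPA2, and 99.2 and 71.5 for EXPA17. Of these 5, the peaks of both HY5-SRDX libraries met in 1 region at XTH26 alone, 1110 to 1230 bp upstream, at percentiles of 57.8 and 18.6. Among all genes listed in both HY5-SRDX and no HY5ox library 29.3% had such a region, against 92.1% of those listed in every HY5ox and no HY5-SRDX library. Peaks were 167 and 210 bp wide in HY5-SRDX and 273 to 301 bp in HY5ox, and the part of peak width in this was not tested.

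The ranks of members listed in every library of both constructs were compared gene by gene with two-sided exact permutation tests, which cannot go below p = 0.1 in this design and take no account of the sets. Lists differ in length, and a difference in percentile is a difference in standing within a list and shows no change in binding. Between HY5ox and HY5-VP16 no range was separate at the 4 members tested, where 19.4% of 2695 genes had lower percentiles in every HY5ox library and 0.26% higher ones. XTH27 averaged 7.59 ± 3.86 in HY5ox and 17.4 ± 6.37 in HY5-VP16 (SD, n = 3 each, difference -9.85, exact permutation p = 0.2), a difference close to the median of -8.29 over all genes tested. Between HY5ox and HY5-SRDX the ranges were separate at XTH30 and XTH19 of 5 members tested, both with higher, and so weaker, percentiles in HY5ox (25% of 3570 genes, and 22.5% in the opposite direction). XTH30 averaged 60.0 ± 9.47 in HY5ox (SD, n = 3) and 0.802 ± 0.362 in HY5-SRDX (n = 2), a difference of 59.2 (exact permutation p = 0.1, adjusted p = 0.312 by Benjamini-Hochberg over all genes tested). XTH19 differed by 29.8 (exact permutation p = 0.2, adjusted p = 0.408). Ranked by fold over control the XTH19 difference became -1.44. That of XTH30 kept its sign under this ranking but was smaller (exact permutation p = 0.4). Between HY5-VP16 and HY5-SRDX only EXPA7 and EXPA9 could be tested, and their ranges overlapped, where 13.3% and 16.7% of 1939 genes were separate in the 2 directions.

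**Figure D4:**
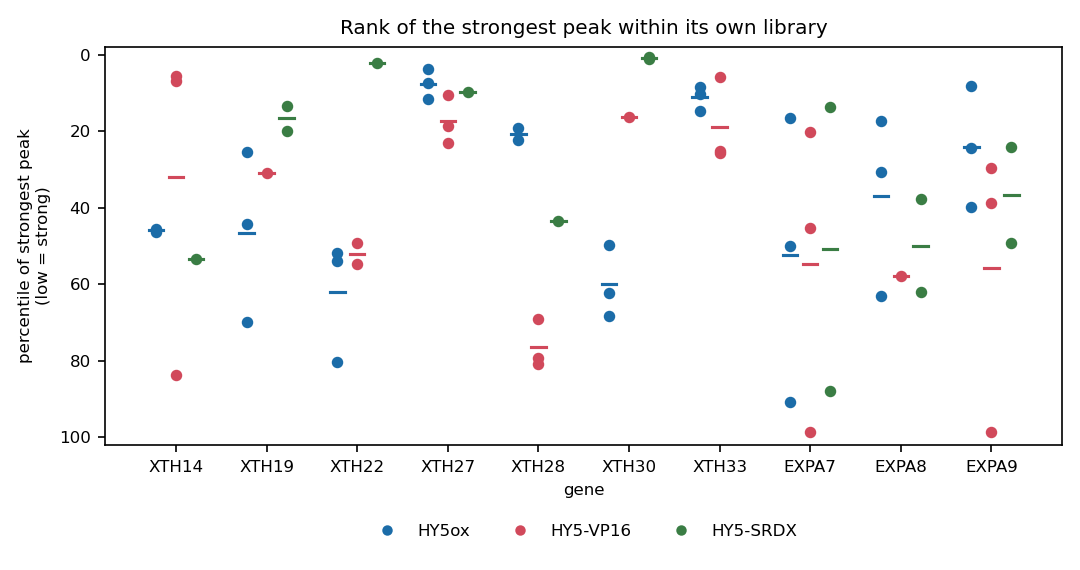
Percentile of the strongest peak (vertical axis, inverted so that strong peaks are at the top) for the 10 members listed in 6 or more libraries, with 1 point per library that listed the gene and a bar at the mean of each construct. The HY5-SRDX points of XTH30 sit at 0.546 and 1.06, above its other points, while the points of EXPA7 spread from 13.7 to 98.5.

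Other wall genes are set beside these counts and beside all protein-coding genes. Of the latter, 12.4% to 52.5% were listed per library, 22.5% in 6 or more and 6.58% in all 8. Of 7 further alpha-expansins (EXPA19, annotated as a transcribed pseudogene, and EXPA21 to EXPA26) 1 was listed in any library, against 81.0% of protein-coding genes. Of 10 beta-expansin and expansin-like genes 4 were listed in 6 or more libraries, EXPB4, EXLA1, EXLA2 and EXLA3, and EXLA2 in all 8. Of 12 genes that build or trim xyloglucan, the substrate of XTH enzymes, 3 to 9 were listed per library and 4 in 6 or more, and XXT2, a xylosyltransferase, and the galactosyltransferase genes MUR3 and XLT2 were listed in all 8. Of 8 genes of cellulose synthesis at the growing wall 3 to 8 were listed per library and 6 in 6 or more, with the catalytic subunit gene CESA1 in all 8. Among 9 genes of wall acidification, the proton pump genes AHA1 and AHA3 were listed in 6 libraries each. HY5-SRDX replicate 1 listed 8 of the 9, among them the auxin-response genes SAUR19 to SAUR23, which no other library listed, and the other libraries listed 0 to 3. Since no test was made on these lists, they describe these libraries only.

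**Figure D5:**
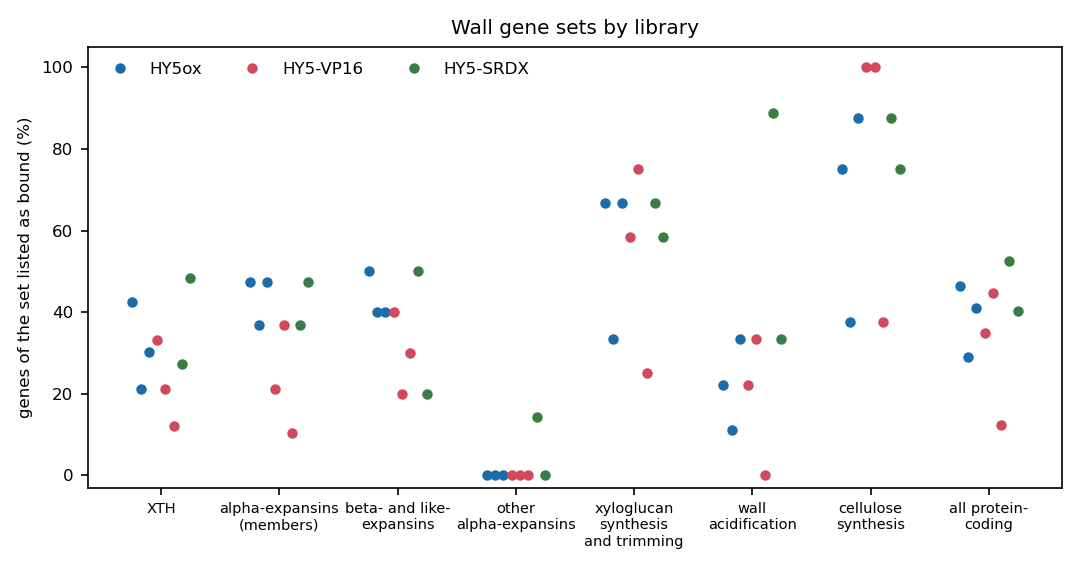
Share of listed genes (%, vertical axis) in the XTH and alpha-expansin families, 5 further sets of wall genes and all protein-coding genes, with 1 point per library coloured by construct. The points of cellulose synthesis, from 3 to 8 of 8 genes, reach higher than those of XTH genes.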

How the data were processed

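The submitters' processing notes name HOMER 4.9.1, Bowtie2 2.3.0, CASAVA 1.8.2 and the TAIR10 build. The file headers show that each library's peaks were called against its set's control, at a false discovery rate of 0.001, 3-fold over the control and 2-fold over the surrounding 10 kb. The deposited signal of a peak is its tag count scaled to a total of 10 M, its score is the caller's own, and its fold is a ratio of peak to control tags, as the authors computed them; all are the authors' values, used within 1 list. Per the file headers, HY5-VP16 replicate 3 alone had the tags of each peak normalized to the control. Depth was 11.5 to 56.0 M tags.

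Gene lists were used as deposited; 1 entry that names no gene was left out. Of 25262 listed identifiers 24902 matched a RefSeq table of TAIR10.1, used for names and gene types only. EXPA3 appears there as EXP3. A peak assigned to promoter and body counted as promoter. Distances run from peak centre to the outermost start site in the files. Peaks of all libraries overlapping by 1 bp or more were chained into regions. No sequence is shown, since no genome was used here. Percentiles were compared with exact permutation tests, with Benjamini-Hochberg adjustment over every protein-coding gene tested (threshold 0.05). The unadjusted test was tried on simulated percentiles with a large shift and a small spread. That does not show how it performs at wider spreads such as that of EXPA7. Members, lists and tests were chosen with earlier results of these data known. The genes named are those listed in 7 or 8 libraries, the 5 best ranked per family among those in 4 or more, those split between constructs, those sharing peaks and, by name, those never listed; others were chosen after their values were seen. Python 3.11.15, numpy 2.4.6, pandas 2.3.3 and matplotlib 3.10.9 were used.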

Additional observations from a re-analysis of the deposited data

How the results depend on the processing

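Counts of listed members depend on how many peaks a list holds, and the per-library counts did not change when genes were read from the peak table. For the other rules in this paragraph and the next, no share of protein-coding genes is given, except for the single region. Whether a change in count is particular to the members therefore cannot be read from them. At a fold over control of at least 5, the listed members numbered 12, 4 and 12 in HY5ox replicates 1 to 3, 5 and 0 in HY5-VP16 replicates 2 and 3, and 6 and 13 in HY5-SRDX. Every library of HY5ox, HY5-VP16 and HY5-SRDX then listed 3, 0 and 2 members, all 8 libraries 0, and the splits were 0 (HY5ox without HY5-VP16), 1 (HY5ox without HY5-SRDX), 0 (HY5-VP16 without HY5-SRDX), 0 (HY5-SRDX without HY5ox) and 1 (HY5-SRDX without HY5-VP16). With the strongest 2958 peaks of each library the counts were 7, 3 and 5 in HY5ox, 6 and 3 in HY5-VP16 replicates 1 and 2, and 2 and 8 in HY5-SRDX. Every library of a construct listed 3, 3 and 1, all 8 listed 0, and the splits were 0, 2, 1 (HY5-VP16 without HY5ox), 2, 1 and 0. With promoter peaks only, 1 member was in all 8, HY5-VP16 without HY5-SRDX gave 0 and both HY5-SRDX splits gave 3. In set 1 alone HY5ox listed 23 in its 1 library, and the splits of HY5ox and HY5-VP16 became 8 and 1. The rule of a single region, chosen after seeing the data, gave 5 for HY5-SRDX and 1 for all 8. Centres within 1000 bp upstream numbered 67, against 133 promoter assignments.

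Leaving out single libraries moved HY5-SRDX most, from 10 to 25 without its replicate 1 and to 16 without its replicate 2, each then a single library. The ranges were 12 to 15 for HY5ox, 6 to 9 for HY5-VP16, 10 to 25 for HY5-SRDX and 2 to 3 for all libraries. For the splits they were 3 to 5 for HY5ox without HY5-VP16 (5 without HY5ox replicate 1 or HY5-VP16 replicate 1 or 2), 4 to 7 for HY5ox without HY5-SRDX and 1 to 4 for HY5-VP16 without HY5-SRDX (7 and 4 without HY5-SRDX replicate 2). They were 5 to 9 for HY5-SRDX without HY5ox (9 without HY5-SRDX replicate 1) and 5 to 12 for HY5-SRDX without HY5-VP16 (12 and 10 without HY5-SRDX replicate 1 and 2).

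Members with separate percentile ranges numbered 0 of 4 tested for HY5ox and HY5-VP16, 2 of 5 for HY5ox and HY5-SRDX, and 0 of 2 for HY5-VP16 and HY5-SRDX. Ranked by fold over control the first 2 were 1 of 4 and 1 of 5. Without single HY5ox or HY5-VP16 libraries the counts were 0 to 3, 2 to 3 and 0. The first was 3 of 6 without HY5ox replicate 2 and 2 of 4 without HY5-VP16 replicate 2. Set 1 alone, and leaving out a HY5-SRDX library, left a construct with 1 library, whose range separates easily, and no count is given. The share over all genes is not given for these runs. The XTH27, XTH33 and XTH30 differences kept their direction in each alternative run. The XTH30 difference was smaller when ranked by fold over control (exact permutation p = 0.4, against 0.1 in the main run). Differences that changed sign were those of EXPA7, EXPA8, EXPA9 and XTH19. Between HY5ox and HY5-SRDX, ranking by fold gave -1.44 for XTH19, -12.2 for EXPA7 and 27.7 for EXPA8, the strongest promoter peak gave 18.5 for EXPA8 and set 1 gave -34.2 for EXPA7. Without single libraries EXPA7 ranged from -21.5 to 19.6, -35.5 to 38.7 and -33.2 to 41.0 in the 3 comparisons, and EXPA9 from -25.0 to 0.0055 and from -2.35 to 32.1 in the latter 2. The cause was not tested. With the replicate number as a block, the HY5ox and HY5-VP16 differences were the same (-9.85 for XTH27, exact sign-flip p = 0.5), 3 members had the same sign in both pairs of HY5ox and HY5-SRDX, and HY5-VP16 minus HY5-SRDX became -18.0 for EXPA7 and -2.35 for EXPA9, as in set 1. Same-numbered HY5ox and HY5-VP16 libraries correlated at 0.369, -0.172 and 0.141, so that the numbers do not pair the libraries. HY5ox and HY5-VP16 libraries of 1 set correlated at 0.141 to 0.369 in all 3 pairs. Of 6 such pairs from different sets 5 were negative (-0.435 to 0.275). Pairs of set 1 libraries with HY5-SRDX lay between -0.0475 and 0.0475. The correlated values are deviations from the mean of a construct, so that these correlations are not independent of each other. A tie by set was not tested. A motif search in promoters was not run.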
